A study of Mus musculus with 24 samples.

Results

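Complement is a cascade of secreted proteins, with receptors and inhibitors, that tags cells, synapses and debris for removal. The report covers 10 of its genes in mouse cerebellum: C1qa, C1qb and C1qc, C4b and C3, Serping1, and the receptor genes C3ar1, C5ar1, Itgam and Itgb2. Members were taken by gene name, through the transcript that each array probe was designed against, and every such probe is reported whatever its result. The 10 genes had 13 probes, with a pair of probes each for C3, C4b and Itgam, and all 13 were among the 38115 probes (16935 named genes) bright enough on the arrays to be tested.

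In the classical pathway C1q, built from the chains of C1qa, C1qb and C1qc, binds its target and starts the cascade. C4 and then C3 are cleaved and attach to the target, C1 inhibitor (Serping1) restrains the first step, and released fragments act on the receptors encoded by C3ar1 and C5ar1. Attached C3 is read by complement receptor 3, the integrin made of CD11b (Itgam) and CD18 (Itgb2). In the brain microglia are the main source of C1q and carry these receptors, whereas astrocytes also make C3 and C4.

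RNA from the cerebellum of C57BL/6 mice at postnatal day 28 was measured on 24 single-colour Agilent arrays, 1 sample each, in 12 groups of 2. Derlin-1 and Derlin-2 are endoplasmic reticulum proteins that help to remove misfolded proteins. Knockouts (KO) carried floxed Derl1 or floxed Derl2 and a Cre recombinase under the nestin promoter, which is active in neural progenitors and so in neurons and macroglia. Controls were Derl1 flox/flox or Derl2 flox/flox mice, for which the labels name no Cre. In the numbered Derlin-1 series and in the Derlin-2 line, controls and KO received water (vehicle) or 200 mg/kg of 4-phenylbutyrate (4PBA), a chemical chaperone, once daily into the abdomen from day 14 to day 28. A lettered Derlin-1 series had controls and KO with 4PBA, and controls and KO for which the labels name no injection, here called untreated. The arrays without 4PBA are those of the numbered vehicle groups and of the lettered untreated groups. The labels do not say whether samples were single or pooled animals, so p-values measure the spread between these samples.

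Each series lay on its own slide of 8 arrays, and the lettered slide was scanned on another day. Controls and KO held different columns of a slide, and arrays with and without 4PBA different rows, so slide position and group cannot be told apart. By the call of the scanner software, 57.7% to 68.4% of an array's spots stood well above background. All 5 granule neuron and all 4 Purkinje cell markers listed for the cerebellum were well above background on all 24 arrays. The Derl1 probe read 0.14 to 0.94 on the 8 Derlin-1 KO arrays and 0.76 to 1.22 on their 8 controls, and whether it lies in the deleted part is not given in the sources used here. Derl2 (A_51_P498831) read 0.18 to 0.48 on 3 Derlin-2 KO arrays but 1.72 on another, labelled KO vehicle 1, above all 4 Derlin-2 controls (1.40 to 1.58). On that array Derl3, a related gene, read -1.85, among the other Derlin-2 KO arrays (-1.96 to -0.61) and above the Derlin-2 controls (-3.03 to -2.75), so the genes pointed different ways. In the Derlin-1 line Derl3 read -0.63 to 0.37 on 7 Derlin-1 KO arrays and -3.14 to -1.69 on their controls, but -2.27 on the lettered array labelled Derlin-1 KO 4PBA b. Call counts of the members that rest on either array are given with and without it, and marker lists that rest on them with all arrays only.

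A level below is the log2 intensity of a probe minus the 75th percentile of its array, so 0 is the brightness of a probe at that percentile and 1 unit is a doubling. Levels of different probes cannot be compared, since each probe has its own brightness. A difference is a log2 fold change with its standard error (SE) from limma, fitted over all 24 arrays. It was called at an adjusted p under 0.05 after Benjamini-Hochberg adjustment over all probes tested in that comparison, two-sided.

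Without 4PBA, 9 of the 13 complement probes were called higher in Derlin-1 KO than in controls, and none was called lower; 12 of the 13 differences were above 0. They stood for 8 of the 10 genes: the 3 C1q chains, C4b, C3 (on 1 of its 2 probes), C3ar1, C5ar1 and Itgb2. C5ar1 was kept for testing only because it was bright in Derlin-1 KO, so its call is no support, and without it 8 of 12 probes and 7 of 9 genes were called. Over all probes, 5.09% were called in this comparison and 2.53% were called higher. The median difference of the 13 was 1.25, and also 1.25 over the 11 measured in every group compared (at least 1 array well above background), against 0.02 over all probes tested. On 9 of the 13, every KO array lay above every control array of its own slide, which held for 9.47% of all kept probes; without C5ar1 it was 8 of 12.

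The C1q chains act first in the cascade, and all 3 were called higher, at differences of 1.43 to 1.44. C1qa read -0.88 and -0.78 on the numbered control vehicle arrays and 0.59 and 0.77 on the KO vehicle arrays. On the lettered slide it read 0.15 and -0.14 in untreated controls and 1.5 and 1.22 in untreated KO. The groups did not overlap on either slide, and the mean difference was 1.43 (SE 0.24), a fold of 2.70, with an adjusted p of 0.00691.

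C1qb read -1.44 and -1.47 in numbered controls against -0.03 and 0.16 in KO, and -0.42 and -0.78 in lettered controls against 0.90 and 0.61 in KO. C1qc read 0.18 and 0.14 in numbered controls against 1.54 and 1.61 in KO, and 0.47 and 0.09 in lettered controls against 1.89 and 1.57 in KO. Neither probe's groups overlapped. C1qb differed by 1.44 (SE 0.22, adjusted p 0.00512) and C1qc by 1.43 (SE 0.25, adjusted p 0.00829).

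The 3 chains also tracked each other array by array. Set against the mean of the slide's own controls without 4PBA, they lay within 0.04 to 0.16 of each other on all 8 Derlin-1 KO arrays. Over the 24 arrays, with each slide's mean removed, Pearson's r was 0.99 between C1qa and C1qb, 0.98 between C1qa and C1qc and 0.99 between C1qb and C1qc. These are descriptions: the probes share arrays and the KO arrays drive much of the spread.

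The baseline of the chains was less uniform. In the numbered vehicle controls C1qa stood at -0.83 ± 0.07 (SD, n = 2) and in the lettered untreated controls at 0.01 ± 0.20 (SD, n = 2). C1qb moved from -1.46 ± 0.02 to -0.60 ± 0.25 between the same groups, whereas C1qc stood at 0.16 ± 0.03 and 0.28 ± 0.27. Slide, scan day and series cannot be told apart here, so all differences were formed within a slide.

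Of the 10 genes, 6 have an entry in the RefSeq promoter table (GRCm38.p6). The 250 bases before the start are printed for C1qb and C1qc, neighbouring genes that were called together, and for C3, whose probes differed. All 3 lie on the minus strand: C1qb at chr4:136886201-136886450, C1qc at chr4:136892915-136893164 and C3 at chr17:57228137-57228386. They run 5′ to 3′ toward the start, and capitals mark matches, on either strand, to GAGGAA (the core bound by PU.1, a myeloid factor), TTGCNNAA (a C/EBP motif) and a loose NF-kB motif (GGG and CC with 5 bases of any kind between them).
C1qb: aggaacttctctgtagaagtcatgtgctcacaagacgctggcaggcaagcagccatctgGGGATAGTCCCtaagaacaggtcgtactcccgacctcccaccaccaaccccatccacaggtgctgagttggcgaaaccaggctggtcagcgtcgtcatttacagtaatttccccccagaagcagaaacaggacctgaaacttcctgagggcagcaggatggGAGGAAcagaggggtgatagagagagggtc
C1qc: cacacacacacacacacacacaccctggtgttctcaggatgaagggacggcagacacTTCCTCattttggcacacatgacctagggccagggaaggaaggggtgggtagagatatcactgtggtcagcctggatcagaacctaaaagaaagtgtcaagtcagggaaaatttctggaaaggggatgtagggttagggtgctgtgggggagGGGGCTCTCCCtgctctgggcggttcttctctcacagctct
C3: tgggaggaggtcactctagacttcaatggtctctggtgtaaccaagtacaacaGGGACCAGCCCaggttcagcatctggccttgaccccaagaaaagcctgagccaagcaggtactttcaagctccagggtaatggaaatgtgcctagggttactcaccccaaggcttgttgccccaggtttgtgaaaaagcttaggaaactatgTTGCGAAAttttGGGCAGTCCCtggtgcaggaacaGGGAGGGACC

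GAGGAA occurred in 3 of the 6 member stretches (C1qb, C1qc and Itgam) and in 23.3% of all 32851 stretches of this length in the table. TTGCNNAA occurred in 1 of 6, that of C3, and in 9.56% of all. The NF-kB motif occurred in 5 of 6 and in 45.8% of all, and several of its matches on opposite strands overlap. An interferon response motif (GAAA, 2 bases of any kind, GAAA) and TTCNNNGAA (a GAS motif) occurred in 0 of 6 and in 2.98% and 7.02% of all. TATAAA occurred in 1 of 6, that of C3ar1, and in 12.4% of all. A match is a description of letters and not evidence that a factor binds there.

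**Figure D1:**
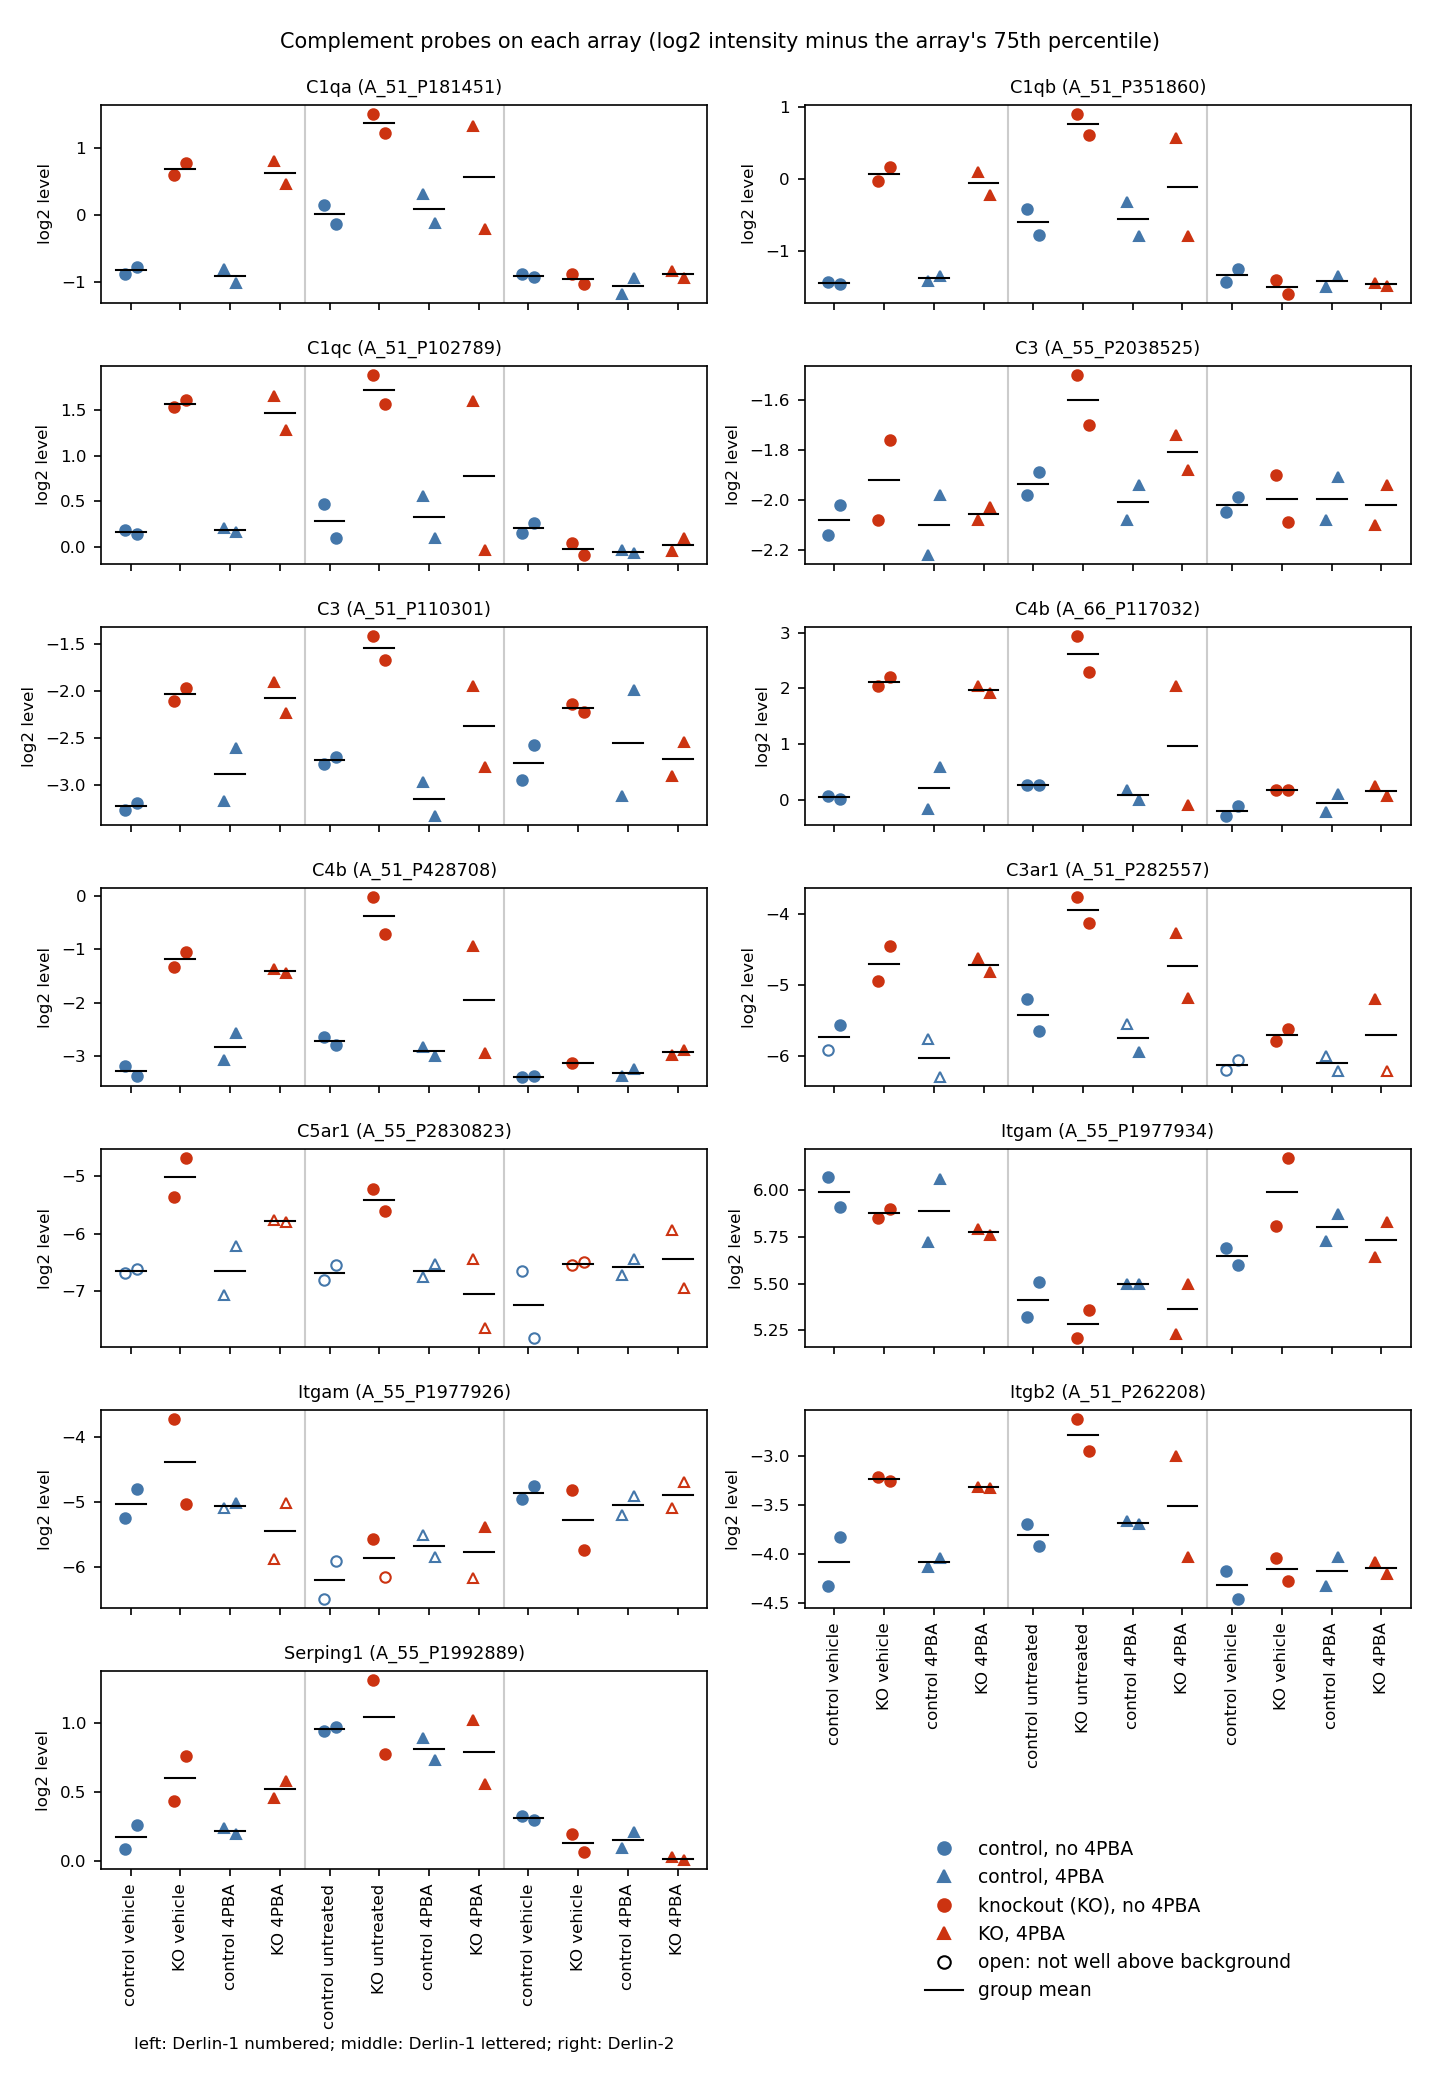
Log2 level of each of the 13 complement probes on every array, by group, with a line at each group's mean of 2 arrays; red is KO, blue is control, triangles are 4PBA arrays and open symbols were not well above background. C1qa, C1qb, C1qc and both C4b probes separate KO from control on both Derlin-1 slides without 4PBA, and the lower red triangle of the lettered 4PBA group is the array labelled KO 4PBA b.

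C4b, the mouse C4 gene, had the largest difference among the members. Its probe A_66_P117032 read 0.06 and 0.02 in numbered controls and 2.04 and 2.20 in KO, and 0.26 and 0.27 in lettered controls and 2.94 and 2.30 in KO. The difference was 2.22 (SE 0.33), a fold of 4.65, with an adjusted p of 0.00497. The second probe, A_51_P428708, gave 2.21 (SE 0.31, adjusted p 0.00497), from -3.18 and -3.36 to -1.33 and -1.05 on the numbered slide and from -2.64 and -2.78 to -0.03 and -0.72 on the lettered slide. Neither probe's groups overlapped, and r between the probes was 0.99. Mouse C4a and C4b are near-identical copies, so signal of one on probes of the other cannot be told apart here.

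C3, the central component of the cascade, was called on 1 of its 2 probes. Probe A_51_P110301 read -3.27 and -3.19 in numbered controls against -2.11 and -1.97 in KO, and -2.78 and -2.70 in lettered controls against -1.42 and -1.67 in KO. It differed by 1.19 (SE 0.23), a fold of 2.28, with an adjusted p of 0.0131, and the groups did not overlap. Probe A_55_P2038525 read -2.14 and -2.02 in numbered controls, -2.08 and -1.76 in KO, -1.98 and -1.89 in lettered controls and -1.50 and -1.70 in KO. Its groups overlapped on the numbered slide, and its difference of 0.25 (SE 0.09) was not called (adjusted p 0.143). Both probes were well above background on all 24 arrays, and r between them was 0.74.

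Serping1, which encodes C1 inhibitor, was not called. It read 0.09 and 0.26 in numbered controls against 0.44 and 0.76 in KO, but 0.94 and 0.97 in lettered controls against 1.31 and 0.78 in KO. The lettered groups overlapped, and the difference was 0.26 (SE 0.12, adjusted p 0.248). Without the lettered KO untreated array b it was called, at 0.39 (adjusted p 0.0479).

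Both anaphylatoxin receptors were dim, and both were called higher. C3ar1, the C3a receptor, read -5.91 and -5.56 in numbered controls and -4.94 and -4.45 in KO, and -5.20 and -5.64 in lettered controls and -3.76 and -4.13 in KO. The groups did not overlap, and the difference was 1.25 (SE 0.24, fold 2.39, adjusted p 0.0120). With normexp background correction it was smaller, 0.43 (adjusted p 0.0132). The probe was well above background on all 4 of these KO arrays and on 3 of the 4 controls.

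C5ar1, the C5a receptor, was well above background on just 4 of the 24 arrays, the Derlin-1 KO arrays without 4PBA. It read -5.36 and -4.69 in numbered KO and -5.22 and -5.60 in lettered KO. Its control readings, -6.69 and -6.61 in numbered and -6.80 and -6.55 in lettered arrays, were not well above background and so give only a bound. KO was at least 1.74-fold brighter on the numbered slide and at least 1.60-fold brighter on the lettered slide. The fitted difference of 1.44 (SE 0.31, adjusted p 0.0197) is no measure of size for the same reason, and with normexp it was 0.24 and not called (adjusted p 0.103).

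The integrin subunits follow. Itgb2, which pairs with Itgam but also with other alpha subunits, read -4.33 and -3.83 in numbered controls and -3.22 and -3.26 in KO, and -3.70 and -3.92 in lettered controls and -2.63 and -2.95 in KO. It differed by 0.93 (SE 0.18, fold 1.91, adjusted p 0.0127), with no overlap. Under the other processing settings its difference ran from 0.57 to 1.02. Itgam was called on neither probe. Its bright probe A_55_P1977934 read 6.07 and 5.91 in numbered controls against 5.85 and 5.90 in KO, and 5.32 and 5.51 in lettered controls against 5.21 and 5.36 in KO, a difference of -0.12 (SE 0.10, adjusted p 0.573). Its dim probe A_55_P1977926 was well above background on 11 of 24 arrays and differed by 0.50 (SE 0.31, adjusted p 0.411). Its KO readings were -3.72 and -5.03 on the numbered slide and -5.57 and -6.15 on the lettered slide. That difference ran from 0.17 to 0.82 with single arrays left out and from 0.03 to 0.65 under the other settings. The dim probe read -5.25 and -4.80 in numbered controls, and -6.49 and -5.91, not well above background, in lettered controls, so its groups overlapped on both slides. The bright probe's groups overlapped on the lettered slide. The probes were designed against different Itgam transcripts and gave differences of opposite sign, neither of them called. Over the 24 arrays r was -0.09 between them, and -0.45 and 0.07 with Itgb2 for the bright and the dim probe. By mean level the bright probe stood above 99.2% of all probes and the dim probe above 41.2%. Which of the probes reads Itgam could not be settled from the files, so whether Itgam changed cannot be told.

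The Derlin-1 effect was then read in each series. C1qa differed by 1.51 on the numbered and by 1.35 on the lettered slide, C4b (A_66_P117032) by 2.08 and 2.36, and C3 (A_51_P110301) by 1.19 on each. The test of lettered minus numbered effects called 0 of the 13 probes, and 0 also had an unadjusted p under 0.05, where 0.0131% of all probes were called. Tested by series, with 2 arrays a group, the numbered effect was called for 0 of the 13 (0.0236% of all probes). The lettered effect was called for 2, both of C4b (0.622% of all). The spread in these tests still came from the fit over all arrays, so they are not separate analyses of each series. For C1qa the SE was 0.33 in each series, whereas its SD was 0.07 in numbered control vehicle and 0.12 in numbered KO vehicle arrays. Without the lettered KO untreated array a, 5 of the 13 were called, the C1q chains and both C4b probes, and calls over all probes fell too, to 1.07%. C3, C3ar1, C5ar1 and Itgb2 then had adjusted p of 0.0664, 0.0657, 0.0927 and 0.0687, at differences of 1.13, 1.16, 1.35 and 0.85. Without KO vehicle array 2, 6 were called, and 1.66% of all probes.

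**Figure D2:**
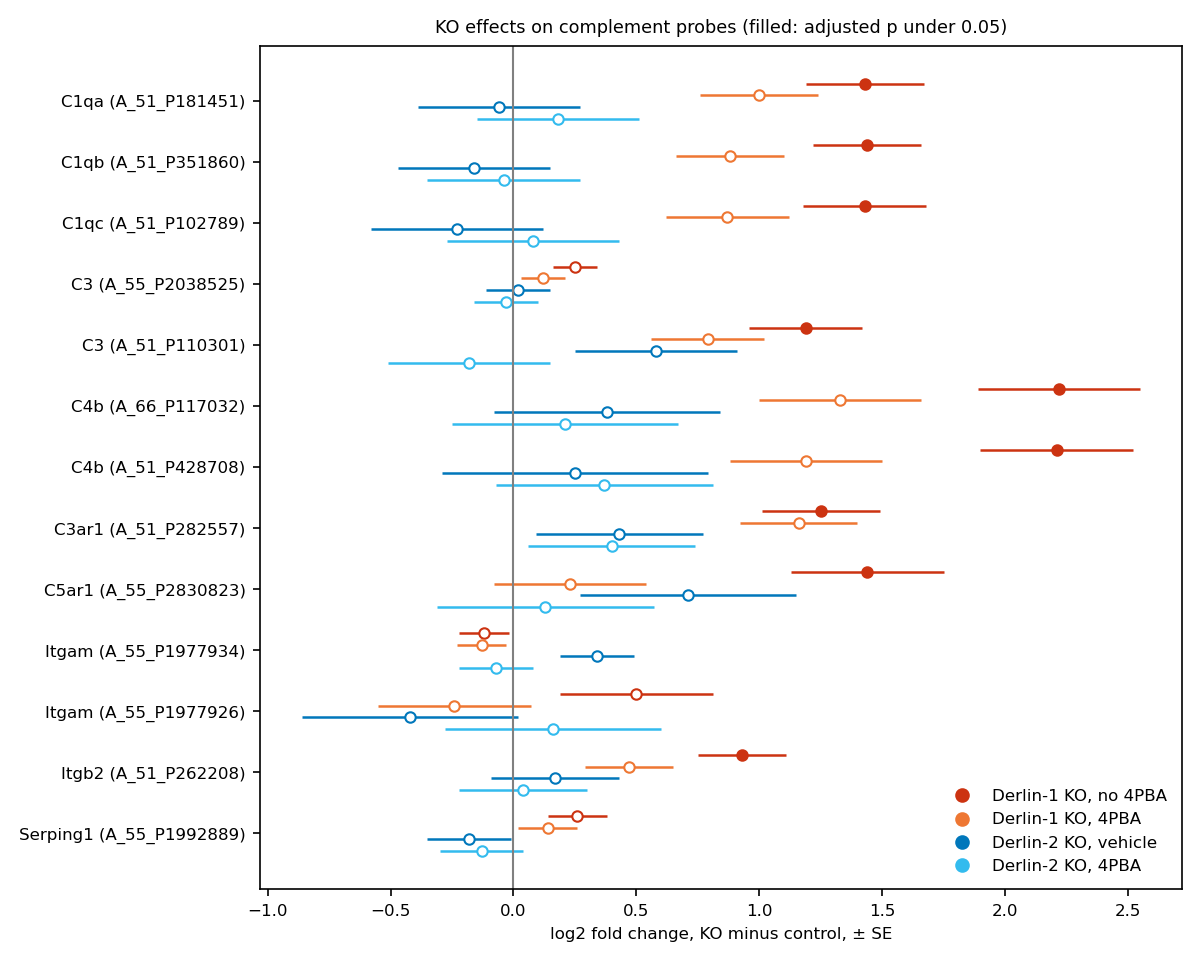
Log2 fold change of KO against control with its SE (bars) for each of the 13 complement probes, in the Derlin-1 line without and with 4PBA and in the Derlin-2 line with vehicle and with 4PBA, from limma over all 24 arrays; filled points have an adjusted p under 0.05, and values of C5ar1, C3ar1 and the dim Itgam probe are no measures of size where a group was not well above background. The 9 filled points are all of Derlin-1 KO without 4PBA and lie between 0.93 and 2.22.

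Markers of microglia moved with the members. Of 17 microglia genes that hold no complement gene, all well above background on all 24 arrays, 12 were called higher and 1 lower in Derlin-1 KO without 4PBA, with a median of 0.86. Aif1 differed by 1.49 and Trem2 by 1.77, whereas P2ry12 differed by 0.24 (adjusted p 0.567) and Olfml3 fell by 0.61. Their mean level ranged from -0.30 to -0.13 in numbered controls and 0.57 to 0.60 in KO, and from -0.45 to -0.21 in lettered controls and 0.43 to 0.58 in KO. Their summed linear signal, in units of the array's 75th percentile, overlapped on the numbered slide (144 to 156 in controls, 142 to 151 in KO). On the lettered slide it did not (83.4 to 85.9 and 94.4 to 99.7). Such a sum, here and in the lists below, is weighted toward the brightest probes, whereas the mean level weighs each gene alike.

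C1q and C4b were also set against that list. Relative to the slide's controls without 4PBA, the mean of the C1q chains minus the mean of the 17 microglia genes was 0.60 and 0.77 on numbered KO vehicle arrays and 0.62 and 0.47 on lettered KO untreated arrays. The same excess was 1.18 and 1.37, and 1.77 and 1.28, for C4b (A_66_P117032). On the 8 Derlin-1 controls it lay between -0.11 and 0.18 for C1q and, more widely, between -0.21 and 0.45 for C4b. The C4b value was -0.07 to 0.36 on the 4 Derlin-2 controls and 0.41 to 0.62 on the 4 Derlin-2 KO arrays. In bulk tissue more cells of a type and more RNA per cell cannot be told apart.

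Other cell type lists were read in the same way. Of 7 border macrophage and monocyte genes kept, 3 were called higher (Cd163, Lyve1 and F13a1), with a summed signal of 9.12 to 10.8 in numbered controls and 10.5 to 11.1 in KO, and 10.5 to 13.5 and 14.7 to 16.6 on the lettered slide. Of 6 reactive astrocyte genes 2 were called higher (Serpina3n and Timp1) and all 6 differences were above 0, with a median of 0.86, the same as for microglia, and summed signals of 11.2 to 11.9 and 14.5 to 17.1 on the numbered slide and 9.63 to 12.1 and 11.4 to 13.6 on the lettered slide. Of 9 astrocyte genes Gfap alone was called (1.25). The border macrophage median was 0.41 and the neutrophil median 0.58. Among 4 neutrophil, 4 lymphocyte, 5 endothelial, 3 blood, 4 Purkinje cell and 4 oligodendrocyte genes, 0 were called. Of 3 serum genes 1 was called higher (Apoh). Of 5 granule neuron genes 2 were called lower (Gabra6 and Neurod1), and all 5 differences were below 0, with a median of -0.33. Their summed signal was 182 to 189 in numbered controls and 136 to 147 in KO, and 148 to 153 and 114 to 116 on the lettered slide. Ccr2, a monocyte marker, and Ngp, Cd8a and Cd79a had probes too dim to be kept. The part of these cell types in the complement differences was not tested.

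**Figure D3:**
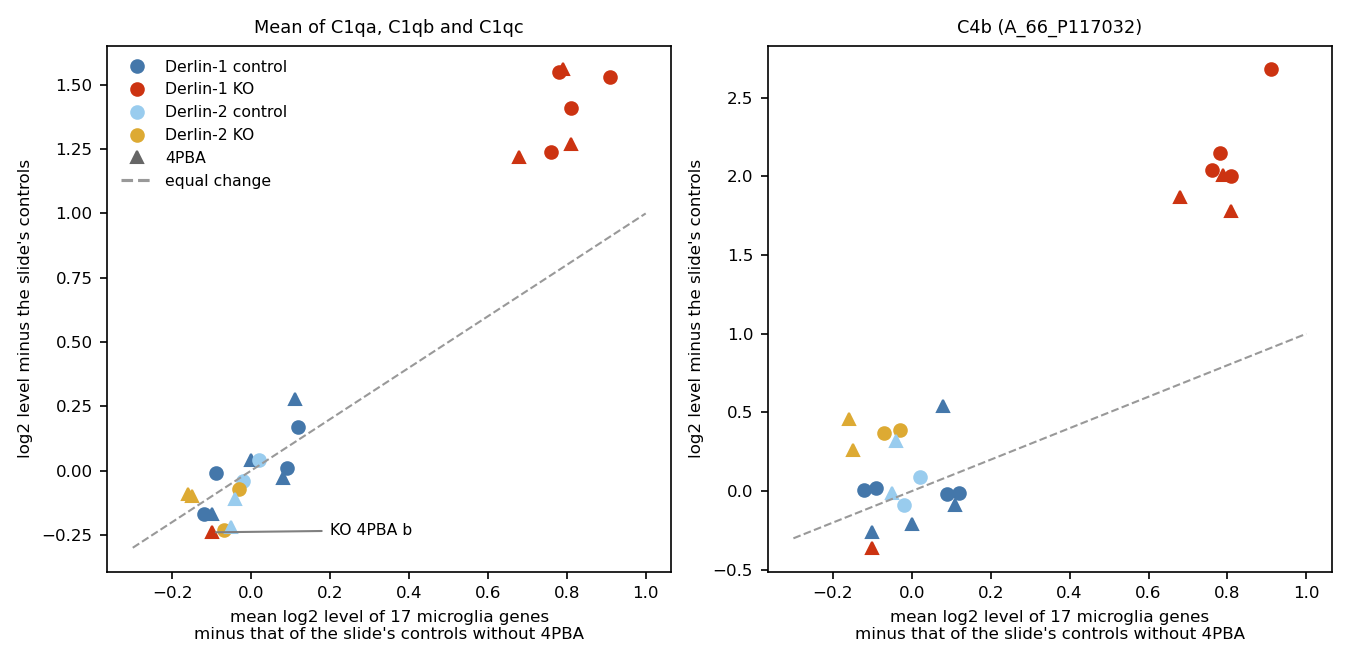
Mean log2 level of C1qa, C1qb and C1qc (left) and log2 level of C4b (right) on each of the 24 arrays against the mean level of 17 microglia genes, all minus the mean of the slide's controls without 4PBA; triangles are 4PBA arrays and the dashed line marks equal change. Of the 8 Derlin-1 KO arrays 7 lie at 1.22 or more for C1q, above the line, and the array labelled KO 4PBA b lies at -0.24, just below the 12 controls (-0.22 to 0.28).

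Genes whose pattern was most like that of a member were sought over the 24 arrays, with slide means removed, among genes well above background on all arrays. For C1qa these were Tyrobp (r 0.987), Cd14 (0.978), Trem2 (0.978), Plek (0.973) and Ptpn18 (0.970). For C4b they were Ctss (0.978), Mpeg1 (0.974), Fyb (0.973), Dach2 (0.973) and Fcgr3 (0.972). For C3, read by its brighter probe A_55_P2038525, r ran from 0.851 (Sspo) to 0.815 (Pxt1); that probe was not called. The called C3 probe, A_51_P110301, was not searched, and its r was 0.90 with C4b (A_66_P117032) and 0.83 to 0.85 with the C1q chains. The arrays and their KO groups are shared by all these genes.

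Of 51 other complement genes listed, all had a probe and 40 were kept, and 4 of these 40 were called higher and 0 lower in Derlin-1 KO without 4PBA. Their median difference was 0.03, near the 0.02 of all probes. Itgax (CD11c), which pairs with Itgb2 in complement receptor 4, was well above background on all 4 KO and on none of the 4 control arrays, and KO was at least 10.5-fold brighter on the numbered and at least 9.38-fold brighter on the lettered slide (adjusted p 0.00403). Itgax too was kept only because it was bright in Derlin-1 KO, so its call is no support, and without it and Cfb, kept in the same way, 3 of 38 were called. C4a differed by 1.91 (SE 0.36, adjusted p 0.0110). Calr, calreticulin, an endoplasmic reticulum chaperone that can bind C1q, differed by 0.75 (SE 0.14, adjusted p 0.0117). C5ar2, the second C5a receptor, differed by 0.41 (SE 0.11, adjusted p 0.0480), and its groups overlapped on the numbered slide.

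The proteases that act between C1q and C3 were not called; they were singled out after their values were seen. C1ra differed by 0.27 (SE 0.19), C1s1 by 0.10 (SE 0.14), C1s2 by 0.04 (SE 0.15) and C2 by 0.21 (SE 0.12). Factor B of the alternative pathway (Cfb) differed by 1.16 (SE 0.53, adjusted p 0.240), with a probe well above background on 11 arrays.

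**Figure D4:**
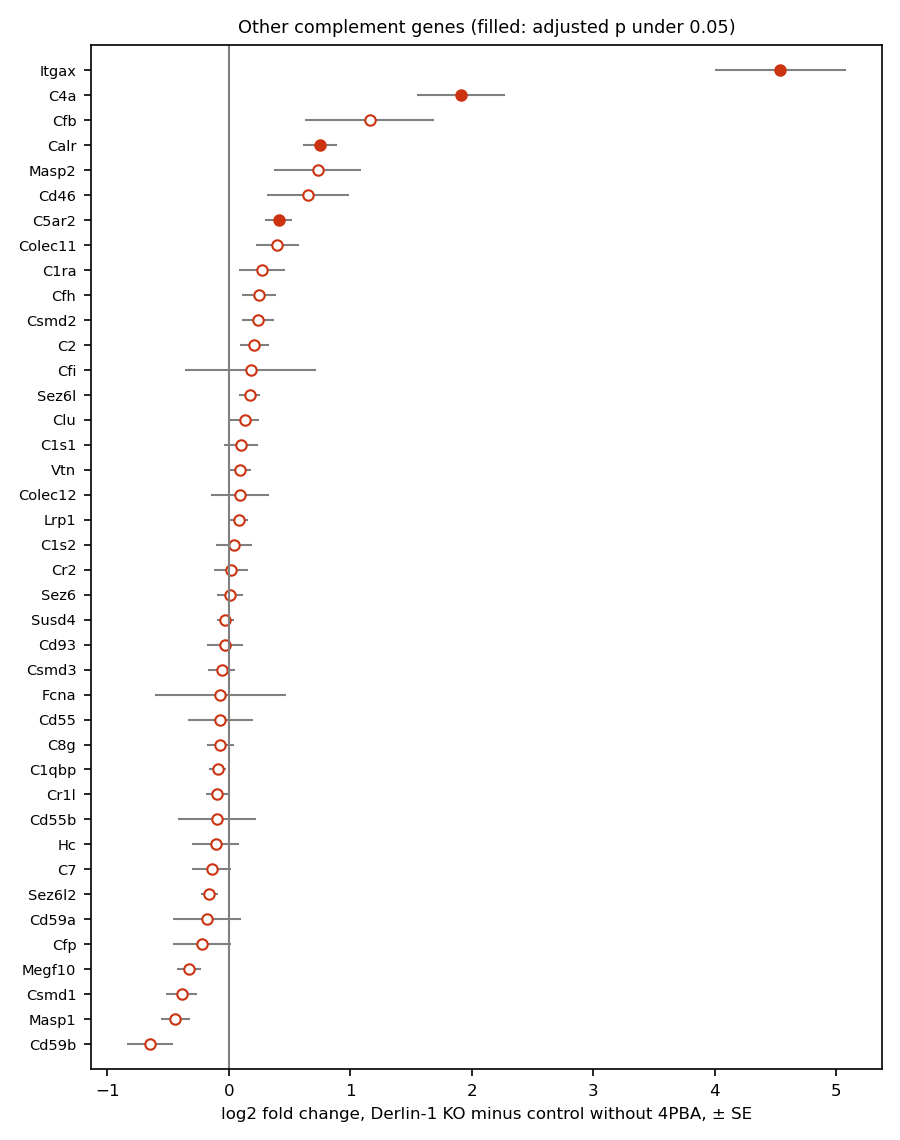
Log2 fold change of Derlin-1 KO against control without 4PBA, with its SE (bars), for the 40 other complement genes whose probe was kept; filled points have an adjusted p under 0.05. Itgax (a fitted value, since its controls were not well above background), C4a, Calr and C5ar2 are filled, and the other genes scatter on both sides of 0.

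Under 4PBA, 0 of the 13 probes were called between Derlin-1 KO and controls, 8 had an unadjusted p under 0.05 (9.82% of all probes had) and the smallest adjusted p was 0.131. Over all probes 0.0630% were called. The median difference was 0.79, and 2 of the 13 (C3 on A_51_P110301, and C3ar1) did not overlap on either slide, against 2.43% of all kept probes. On the numbered slide C1qa read 0.80 and 0.45 in KO against -0.81 and -1.02 in controls, and C4b (A_66_P117032) 2.05 and 1.91 against -0.17 and 0.58. With all arrays, differences were above 0 for 14 of 17 microglia (median 0.54), 5 of 6 reactive astrocyte (0.43) and 6 of 7 border macrophage genes (0.35). They were so for 3 of 3 blood, but 0 of 5 granule neuron, 0 of 4 Purkinje cell and 0 of 4 oligodendrocyte genes. None of these was called, and their part in the complement differences was not tested. C5ar1 was not well above background in any group with 4PBA. Fewer spots of any kind were so on the KO 4PBA arrays. The share was 60.7% and 60.8% against 64.9% and 65.2% in KO vehicle on the numbered slide. On the lettered slide it was 65.7% and 65.2% against 68.4% and 66.4% in untreated KO.

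On the lettered slide the pair of KO 4PBA arrays parted. C1qa read 1.32 on array a and -0.21 on array b, with controls at 0.30 and -0.13, and C4b (A_66_P117032) read 2.04 and -0.10, with controls at 0.17 and 0.00. On array b C1qb read -0.79, the same as the lower 4PBA control, and Itgb2 read -4.03, below all 4 lettered controls, while C3ar1 read -5.18 on it, above both controls (-5.54 and -5.94). Without the array labelled KO 4PBA b, 8 of the 13 were called and all 8 were higher, where 2.83% of all probes were called. C1qa then differed by 1.39 (SE 0.14, adjusted p 0.000172), C1qb by 1.22, C1qc by 1.28, the C4b probes by 1.87 and 1.69, C3 (A_51_P110301) by 1.01 and Itgb2 by 0.72. C3ar1 was the eighth, and since its numbered controls were not well above background it gives a bound there, KO at least 1.70-fold brighter. Without this array and Derlin-2 KO vehicle 1, 7 were called, and 2.46% of all probes. The remaining lettered KO 4PBA array is then assumed to vary like the other groups.

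Within Derlin-1 KO, 4PBA was set against no 4PBA, a comparison that shares its KO arrays with those above. On the lettered slide the arrays without 4PBA have no injection named. There, in this and the next Derlin-1 tests of 4PBA, drug and injection cannot be told apart. All 11 probes measured in every group had differences below 0, with a median of -0.43 (-0.01 over all probes), but 0 of the 13 were called, 5 had an unadjusted p under 0.05 (5.37% of all probes had), and 0.0525% of all probes were called. On 3 of the 13 every KO 4PBA array lay below every KO array without 4PBA of its slide (C4b on A_51_P428708, C5ar1 and Itgb2), against 4.06% of all kept probes. C5ar1 was kept only because it was bright in KO without 4PBA, which favours this direction, and without it the counts were 2 of 12 without overlap and 4 of 12 at an unadjusted p under 0.05. C5ar1 was not well above background on any KO 4PBA array, so KO without 4PBA was at least 1.23-fold brighter on the numbered slide and at least 1.42-fold brighter on the lettered slide (adjusted p 0.545). Without array a, 5 were called lower (the C1q chains by -0.81 to -0.93 and both C4b probes by -1.43 and -1.39), where 0.428% of all probes were called. Without array b, 0 were called (0.0525% of all probes), C1qa differed by -0.05 and C4b (A_66_P117032) by -0.36. In the same comparison with all arrays, 15 of the 17 microglia genes and all 6 reactive astrocyte genes also had differences below 0, with medians of -0.27 and -0.34, and all 3 blood genes had differences above 0, with a median of 0.70. None of these genes was called, and their part in the complement differences was not tested.

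The test of the KO effect under 4PBA minus that without called 0 of 13, with 2 at an unadjusted p under 0.05 (2.27% of all probes were) and 0.0315% of all probes called. One of the 2 was C5ar1, so 1 of 12 remained without it. Without array a it called 1, C4b on A_51_P428708 at -1.51 (0.0735% of all probes). Without array b, the one whose label is in doubt, it called 0 (0.0210% of all), with differences of -0.05 for C1qa, -0.52 for C4b on A_51_P428708 and -0.35 on A_66_P117032, against -0.43, -1.02 and -0.88 with all arrays. In Derlin-1 controls 4PBA against none called 0 of the 13 by limma's test: differences of the 10 probes measured in every group ran from -0.05 to 0.12, 0 of the 13 had an unadjusted p under 0.05, and 0.0341% of all probes were called. C1qa differed there by 0.00 (SE 0.24) and C4b (A_66_P117032) by -0.01 (SE 0.33).

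In the Derlin-2 line 0 of the 13 were called between KO and controls with vehicle, where 0.121% of all probes were called, and 1 had an unadjusted p under 0.05 (6.96% of all probes had). C1qa read -0.89 and -0.93 in controls and -0.89 and -1.04 in KO, a difference of -0.06 (SE 0.33). C4b (A_66_P117032) read -0.29 and -0.12 in controls and 0.18 and 0.17 in KO, a difference of 0.38 (SE 0.46, adjusted p 0.906). C3 (A_51_P110301) read -2.95 and -2.58 in controls and -2.14 and -2.23 in KO, a difference of 0.58 (SE 0.33, adjusted p 0.762). On 6 of the 13 KO lay above controls without overlap and on 2 below, against 22.8% and 23.6% of all kept probes, so such a separation was common on this slide. For 1 of the 6, C4b on A_51_P428708, the spot was flagged on KO vehicle 2 and KO is 1 array. C5ar1, another of the 6, was not well above background in either group, and C3ar1 gives only a bound of at least 1.17-fold.

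Without the array labelled Derlin-2 KO vehicle 1, C1qa differed by -0.13 (SE 0.42), C4b by 0.37 (SE 0.59) and C3 by 0.54 (SE 0.42), and 0 of 12 were called (0.415% of all probes). KO is then 1 array, assumed to vary like the other groups, and C4b on A_51_P428708 has no value. Under 4PBA the KO differences of the 10 probes measured in both groups ran from -0.18 to 0.37, and 0 of the 13 were called (0 also at an unadjusted p under 0.05), where 0.171% of all probes were called. C1qa read -1.18 and -0.95 in 4PBA controls and -0.84 and -0.94 in 4PBA KO.

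4PBA against vehicle called 0 of the 13 in Derlin-2 controls (0.176% of all probes called) and 0 in Derlin-2 KO (0.155% called), with 0 at an unadjusted p under 0.05 in each. Differences ran from -0.26 to 0.21 over the 10 probes measured in both control groups and from -0.55 to 0.21 over the 11 measured in both KO groups. Without the array labelled Derlin-2 KO vehicle 1, 0 of 12 were called in KO (0.349% of all), with C1qa at 0.16 and C3 (A_51_P110301) at -0.51. C4a, the copy of C4b, read -5.49 and -5.14 in Derlin-2 vehicle controls and -3.09 and -3.69 in 4PBA controls, a difference of 1.93 (SE 0.51) that was not called (adjusted p 0.312). It read -5.06 and -5.08 in KO vehicle and -3.94 and -3.98 in KO 4PBA. C4b (A_66_P117032) differed by 0.15 (SE 0.46) between the same controls.

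The test of the Derlin-1 effect minus the Derlin-2 effect without 4PBA called 0 of 13, where 0.0682% of all probes were called. An unadjusted p under 0.05 was found for 7 (4177 of all 38105 probes). Of the 7, Itgam on A_55_P1977934 was below 0, at -0.46 (SE 0.18), and the rest were above 0. The difference of effects was 1.60 (SE 0.37, adjusted p 0.173) for C1qb and 1.84 (SE 0.56, adjusted p 0.263) for C4b (A_66_P117032). Left out in turn, the lettered KO 4PBA arrays a and b each raised the count to 5 (the C1q chains and both C4b probes), where 0.653% of all probes were called, although neither array enters this comparison except through the shared estimate of spread. For C1qa the difference was then 1.49 (SE 0.21, adjusted p 0.00581). Without the array labelled Derlin-2 KO vehicle 1, 0 of 12 were called (0.338% of all probes), with C1qa at 1.57 (SE 0.49, adjusted p 0.231). Without that array and KO 4PBA b, 4 of 12 were called (0.835% of all), the C1q chains and C4b on A_66_P117032.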

How the data were processed

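Total RNA was labelled with Cy3 and read with Agilent Feature Extraction 10.7.1.1, per the submitters' processing notes. The deposited value used was the processed signal of each spot, which per the file headers is an intensity on a linear scale. The headers name another genome build than GRCm38.p6, so array coordinates are not given. Groups came from sample titles. Control spots were left out (59305 spots remained), flagged spots were set missing, repeated spots were averaged, and log2 intensity minus the array's 75th percentile over spots was taken. A probe was kept if some group had it well above background on its 2 arrays. Gene names came from RefSeq through the probe's accession.

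limma 3.58.1 (R 4.3.3) fitted 12 group means (12 residual degrees of freedom), and Derlin-1 comparisons were averaged over both slides. Every adjusted p is limma's. The fit was tested on simulated data. A bound sets the brighter group's mean against whichever is higher on each array, the dim probe's reading or the faintest one called well above background. Members, gene lists and tests were chosen with earlier results of these data known. Every probe of the 10 genes is named, other complement genes where called (C1ra, C1s1, C1s2, C2 and Cfb were added after their values were seen), and the 5 most alike genes of C1qa, C4b and C3. Alternatives covered scaling, filters and background correction (normexp on median signals, since the mean signal is not in the files). They also covered the authors' series table of linear intensities, array weights, a replicate block and left-out arrays. Single series were read as comparisons within the fit over all arrays. The number of arrays, 2 a group, limits precision.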

Additional observations from a re-analysis of the deposited data

How the results depend on the processing

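In Derlin-1 KO without 4PBA the count of member probes called was 9 of 13, where 5.09% of all probes were called. It was 9 again under quantile and median scaling, the authors' table, kept flags, no filter, the intensity trend and array weights. Under normexp it was 8. Shares over all probes are not given for these settings, so the steady count is not set against the whole array. With 1 probe per gene it was 7 of 10 (1800 called of 16935 genes kept). Among probes above background on all arrays it was 6 of 9 (2362 called of 28106). The effect in the numbered series gave 0 and that in the lettered series gave 2, both with the spread of the fit over all arrays. With single arrays left out it ran from 5 to 10; the count for Derlin-1 KO under 4PBA ran from 0 to 8, for 4PBA in Derlin-1 KO from 0 to 5, for the KO effect under 4PBA minus without from 0 to 1, and for the Derlin-1 minus Derlin-2 effect from 0 to 5. Without both arrays in doubt (Derlin-2 KO vehicle 1 and Derlin-1 KO 4PBA b) 7 of 13 were called under 4PBA (938 of all probes) and 4 of 12 measured for the Derlin-1 minus Derlin-2 effect (316 of all). The remaining 398 recomputed counts stayed within 1.5 times of the reported count. The reported count was 0 in every comparison but Derlin-1 KO without 4PBA, so for those this means only that 0 stayed 0. Median scaling moved the median of all probes to -0.11 in Derlin-1 KO without 4PBA and to -0.25 for 4PBA in Derlin-2 KO. With the replicate block 9 were called again. Same-numbered arrays of a slide deviated together at r of -0.30 to 0.76, so whether the numbers pair samples was not settled.

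Of the differences checked in 3 Derlin-1 comparisons, 10 turned sign, none of them called. Itgam (A_55_P1977934) read 0.00 under quantile scaling in KO without 4PBA, and for 4PBA in KO 0.01 under normexp, 0.08 in the lettered series and -0.08 to 0.06 with single arrays left out. Itgam (A_55_P1977926) read 0.09 for 4PBA in KO in the lettered series. Under 4PBA C5ar1 read -0.41 in the lettered series and -0.07 to 0.53 with single arrays left out, and Serping1 -0.02 in the lettered series. The cause was not tested. Signal over background limits C5ar1, C3ar1 and the dim Itgam probe.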
